A study of Homo sapiens with 32 samples.

Results

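This comparison asks which transcription start sites still changed in LNCaP cells between the second and the third day of androgen. It sets 2 libraries taken after 72 h of R1881 against 2 libraries taken after 48 h, which is 4 of the 14 libraries in the LNCaP time course and of the 32 libraries in the series. LNCaP is a line of human prostate cancer cells that respond to androgens, and R1881 is a synthetic androgen. The libraries were chosen by their labelled time, and the libraries of the 2 times were paired by the replicate number in their labels. Cap analysis of gene expression (CAGE) reads the capped 5′ ends of RNAs, so each tag marks a place where a transcript began. Tags were counted at 19534 start sites, which are strand-specific clusters of neighbouring positions given on the hg19 genome build.

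The 72 h group was LNCaP treated with R1881 for 72 h and the 48 h group was LNCaP treated with R1881 for 48 h. Before the hormone, all cells stood in medium with charcoal-stripped serum, which is low in steroids. The sample labels give R1881 at 1 nM, whereas a treatment note shared by all samples gives 10 nM for 24 h, and the labels do not settle which dose was used. No vehicle library was taken at the later times, so the effects of R1881 and of time in culture cannot be told apart. The labels do not say whether replicates came from separate cultures, so p-values measure only the spread between these libraries, which may be technical. In RNA from a whole culture, fewer cells of a kind and less RNA per cell cannot be told apart either. The table pairs no site with a gene name, so the LNCaP label was not checked against marker genes.

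Androgens act through the androgen receptor, a transcription factor that moves to the nucleus once it binds hormone and binds enhancers and promoters of its target genes. In prostate epithelium it drives genes of secretion, lipid metabolism and differentiation, and some genes are repressed by it. Direct targets respond within hours, and later changes can pass through other factors that those targets encode.

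The 72 h libraries held 864716 tags in replicate 1 and 3837493 in replicate 2, and the 48 h libraries held 589685 and 3171453. Replicate 1 was thus the shallower library at both times. A count of 3 tags, taken here as the limit that a count of 0 allows, is worth 3.04 and 0.691 RPM (tags scaled by library size) at 72 h, and 4.59 and 0.807 RPM at 48 h. The 10 highest sites took 9.10% and 17.0% of the tags at 72 h and 9.59% and 13.4% at 48 h. Across 15943 sites, log2 CPM (counts scaled by library size and TMM factors) correlated at 0.95 between 72 h and 48 h in replicate 2 and at 0.898 in replicate 1. The replicates correlated at 0.892 with each other at 72 h and at 0.876 at 48 h. Replicate 1 at 72 h correlated at 0.915 with replicate 2 at 48 h, above its value with replicate 1 at 48 h. Replicate 2 at 72 h correlated at 0.872 with replicate 1 at 48 h. The libraries of 1 time thus resembled each other less than replicate 2 at 72 h resembled replicate 2 at 48 h.

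No site passed the test between 72 h and 48 h. Of 15943 sites with enough tags, 0 were called higher and 0 lower at 72 h (0% called), by edgeR's quasi-likelihood test at an adjusted p of 0.05. The smallest adjusted p was 0.115. At an unadjusted p under 0.05 there were 736 sites, 4.62% of those tested, 338 of them higher and 398 lower at 72 h. DESeq2 on the same libraries also called 0 sites, with 320 at an unadjusted p under 0.05. The fit held the libraries of 0, 3, 12, 48 and 72 h, blocked by replicate number. Without replicate 1 at 72 h, 163 sites were called, 64 higher and 99 lower. In that setting 72 h is 1 library, assumed to vary as the other times do.

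The other contrasts that were run in the same fit gave calls. Not every pair of times was compared, and 3 h against 0 h was not. At 12 h against 0 h, 481 sites rose and 154 fell (3.98% called). At 12 h against 3 h, 21 rose and 7 fell (0.176%). At 48 h against 12 h, 185 rose and 173 fell (2.25%). Against the 0 h libraries, 1301 rose and 1001 fell at 48 h (14.4%). By 72 h, 1726 had risen and 1641 had fallen (21.1%). These contrasts share libraries with one another and with 72 h against 48 h, and the numbers of calls were not tested against each other.

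A p above the threshold does not show that a site kept its level, so the confidence intervals were read for what they bound. At 4944 sites, 31.0% of those tested, the 95% interval of the change lay wholly within a 2-fold rise and a 2-fold fall. At 37 sites it lay within 1.5-fold. The bound depended on level. Of 6275 sites with a mean under 10 RPM over the 4 libraries, 18 were bounded within 2-fold. From 10 to 30 RPM 1429 of 4804 were bounded, from 30 to 100 RPM 2313 of 3351, from 100 to 300 RPM 909 of 1127, and from 300 RPM up 275 of 386. In this fit most sites above 30 RPM therefore had a bounded change, and nearly all sites under 10 RPM did not. The median standard error of the log2 change was 0.66 under 10 RPM and 0.29 from 100 to 300 RPM. With the block left out 2389 sites were bounded, with all 14 libraries 2285, and without 1 of the 4 libraries 1376 to 3403. The lowest of these leaves out replicate 2 at 48 h, and without replicate 2 at 72 h it was 2059. In all of these settings, also with either shallow library left out, the count over all levels was lower than a count from the first fit. That count is the number of sites above 30 RPM that were bounded there.

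**Figure D1:**
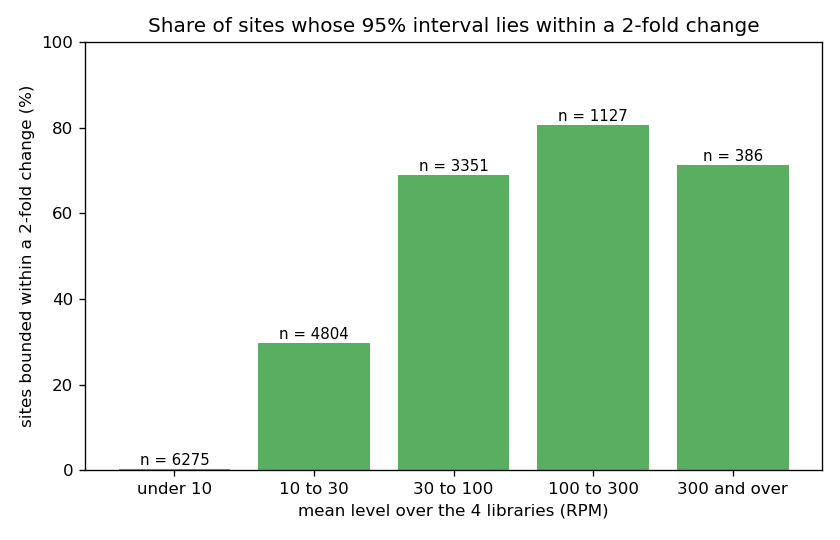
Percent of tested sites (vertical axis) whose 95% interval of the 72 h minus 48 h change lies within 2-fold in both directions, by mean level in RPM (horizontal axis, 5 classes). The bars run from 0.287% under 10 RPM to 80.7% at 100 to 300 RPM, and the number of sites stands above each bar.

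The estimates centred on no change, which the scaling by library size and TMM factors largely fixes in advance. A shift shared by most sites would thus not be seen here. The median log2 change over the 15943 sites was -0.02, with 7733 sites higher and 8210 lower at 72 h. The 25% and 75% points lay at -0.32 and 0.28, and the 1% and 99% points were -1.91 and 1.28. The estimate was at least 2-fold higher at 361 sites and at least 2-fold lower at 808. Of the 9668 sites with a mean of at least 10 RPM it was so at 97 and 93.

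The 72 h minus 48 h differences of replicate 1 and of replicate 2 share no library. Over 9668 sites of at least 10 RPM they correlated at -0.144 (Pearson) and -0.0874 (Spearman). Over 660 sites of at least 200 RPM the values were -0.231 and -0.185. The points of each axis share 2 libraries and their depth. The 2 pairs thus gave changes that ran slightly against each other over both of these sets of sites. Of the 9668 sites, 30 were at least 2-fold higher in both pairs and 23 at least 2-fold lower in both. At 64 sites replicate 1 was at least 2-fold higher and replicate 2 at least 2-fold lower, and at 27 sites the reverse held. Opposite differences of this size thus numbered 91 and like ones 53.

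**Figure D2:**
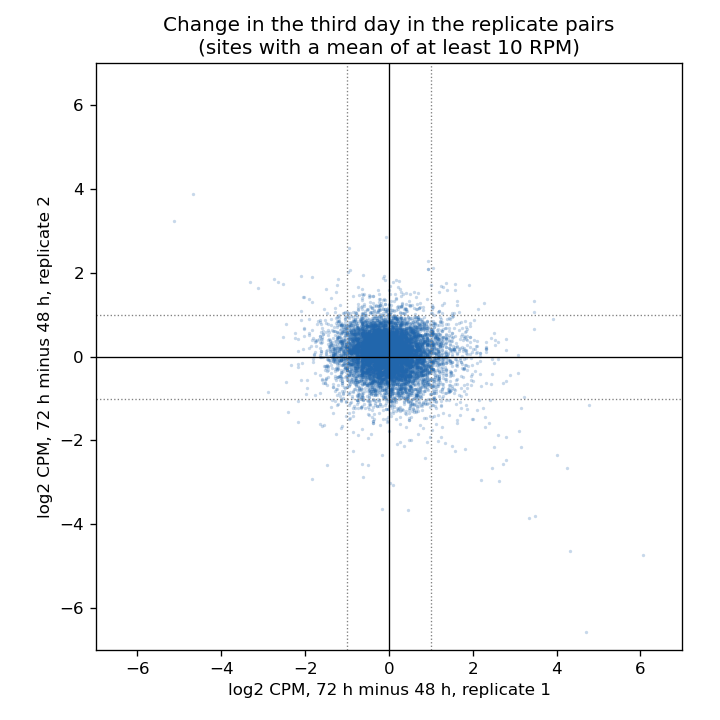
Log2 CPM at 72 h minus 48 h in replicate 1 (horizontal) against the same difference in replicate 2 (vertical), 1 point for each of 9668 sites with a mean of at least 10 RPM. Dotted lines mark 2-fold. The cloud is centred on 0 with no upward slope (Pearson r -0.144), and 64 sites lie at the lower right beyond 2-fold both ways.

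Sites picked in one pair were then read in the other. Of the 307 sites at least 2-fold lower in replicate 2, 119 were lower in replicate 1 as well (38.8%), beside 52.7% of all 9668 sites. Of the 243 at least 2-fold higher in replicate 2, 108 were higher in replicate 1 (44.4%), beside 47.3%. Of the 658 at least 2-fold higher in replicate 1, 339 were higher in replicate 2 (51.5%), beside 57.8%. Of the 528 at least 2-fold lower in replicate 1, 200 were lower in replicate 2 (37.9%), beside 42.2%. In none of these 4 picks by fold was the share of like direction above that of all sites. The 99 sites called lower without replicate 1 at 72 h had a median log2 change of -2.18 in replicate 2 and 0.37 in replicate 1. For the 64 called higher, 62 of which were in the fit of all libraries, the medians were 1.58 and 0.13, and 38 of the 62 (61.3%) were higher in replicate 1 too, beside 49.8% of all sites. Of the 99 called lower, 42 (42.4%) were lower in replicate 1 too, beside 50.2%.

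Among sites with at least 10 RPM at the higher time, the 6 with the smallest p in each direction are described next. None passed, with adjusted p between 0.115 and 0.507 for the 6 higher at 72 h and between 0.279 and 0.396 for the 6 lower. The 6 higher lay on chromosomes 7, 7, 8, 11, 11 and 14, and all 6 were higher in both pairs, beside 23.4% of all sites tested. In 5 of them the libraries of the 2 times did not overlap, beside 11.3% of all sites that were higher at 72 h without overlap. The 6 lower lay on chromosomes 6, 6, 10, 16, 20 and the mitochondrial genome. Of these, 5 were lower in both pairs, beside 23.2% of all sites, and 3 had no overlap, beside 11.2%. Since they were picked for a small p on the same values, these counts describe the pick. Without replicate 1 at 72 h, where 72 h is 1 library, each of these sites kept the direction of its fitted change. The libraries left in that fit had already served to pick the sites, so this is no separate check. The mitochondrial site has no tags at 72 h there, and its value measures no change. In that fit the log2 change was 1.37 for the chromosome 8 site and 1.78 for the chromosome 14 site described next. It was -1.54 for the chromosome 16 site and 2.73 for the minus-strand chromosome 7 site. Without replicate 2 at 72 h these values were 1.22, 1.91, -2.16 and 1.20. There the wide chromosome 11 site, chr11:65191661-65193471, had 0.47, against 1.53 with both 72 h libraries. The chromosome 6 sites had -0.92 and -0.91, against -2.17 and -3.20. An exact permutation test of 2 libraries against 2 that ignores the pairing cannot go below 0.333 for a single site, and one within the pairs has fewer arrangements still.

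The site with the most tags among the higher ones was chr8:6566078-6566410 on the plus strand, 333 bp wide. It had 247 and 524 RPM at 72 h, against 93.2 and 227 RPM at 48 h. Both 72 h libraries were above both 48 h libraries. The fitted log2 change was 1.29 (SE 0.28, 95% interval 0.71 to 1.87, adjusted p = 0.279 by edgeR's quasi-likelihood test), and the pairs gave 1.30 and 1.28. Across the time course its mean was 21.5 ± 11.3 RPM at 0 h and 24.4 ± 13.8 RPM at 3 h, then 42.8 ± 7.88 RPM at 12 h, 160.1 ± 94.5 RPM at 48 h and 385 ± 196 RPM at 72 h (SD, n = 2 each). The mean was thus higher at each later time of these 5.

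The site with the largest fitted change among the higher ones was chr7:44925046-44925164 on the minus strand, 119 bp wide. It had 9.13 and 22.8 RPM at 72 h, against 3.06 and 3.76 RPM at 48 h, from 108 and 16 tags in all. The groups did not overlap. The log2 change was 2.32 (SE 0.58, 95% interval 1.10 to 3.53, adjusted p = 0.507), and the pairs gave 1.25 and 2.41. Without replicate 2 at 72 h the change was 1.20 (SE 0.90). It had a mean of 6.18 ± 1.33 RPM at 0 h, 5.84 ± 0.58 RPM at 3 h and 6.00 ± 0.97 RPM at 12 h (SD, n = 2 each). The mean was 3.41 ± 0.50 RPM at 48 h and 15.96 ± 9.66 RPM at 72 h, so 48 h was the lowest time in the fit. The 6 h and 18 h libraries, left out of the fit, had lower means of 3.14 ± 3.62 RPM and 0.93 ± 1.32 RPM.

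The smallest p of all belonged to a 55 bp site on the plus strand of chromosome 14. It had 185 and 84.0 RPM at 72 h, against 45.9 and 26.3 RPM at 48 h, and the pairs gave log2 changes of 1.90 and 1.71. Both libraries at 72 h lay above both at 48 h, and the fit gave 1.82 (SE 0.30, adjusted p = 0.115). Its mean was 6.30 ± 2.28 RPM at 0 h and 0.98 ± 1.39 RPM at 12 h (SD, n = 2 each). At 3 h its libraries had 16.7 and 4.65 RPM, so 12 h was the lowest time in the fit. The 6 h and 18 h libraries, left out of the fit, had means of 9.42 ± 10.9 RPM and 0.31 ± 0.44 RPM. Single LNCaP libraries outside the time course, normalized apart from it, had 71.1 RPM before treatment. With ethanol they had 64.4 RPM at 6 h and 87.7 RPM at 24 h. The low 0 h level was thus not seen there.

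Of the lower sites, chr16:2136165-2136526 on the plus strand, 362 bp wide, had the most RPM at 48 h. It had 11.2 and 24.6 RPM at 72 h, against 59.6 and 66.1 RPM at 48 h. The groups did not overlap, and the log2 change was -1.76 (SE 0.35, 95% interval -2.49 to -1.03, adjusted p = 0.279). Its mean was 7.75 ± 4.24 RPM at 0 h, 21.7 ± 15.9 RPM at 3 h, 45.3 ± 7.67 RPM at 12 h, 62.9 ± 4.61 RPM at 48 h and 17.9 ± 9.53 RPM at 72 h (SD, n = 2 each). The highest of these means was thus at 48 h, and the mean at 72 h lay below that at 12 h.

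The largest fitted difference among the lower sites, at chrM:8420-8533 on the minus strand, had opposite signs in the pairs. It had 3.04 and 0 RPM at 72 h, against 0 and 27.96 RPM at 48 h, from 3 and 104 tags in all. Replicate 1 had all of its tags at 72 h and replicate 2 all of its tags at 48 h, so the times overlapped. The fitted log2 change was -4.80 (SE 1.29, adjusted p = 0.279). DESeq2 gave -0.94 (SE 2.38). Without replicate 2 at 48 h or without replicate 1 at 72 h, the time that loses a library has 0 tags, and the size of its fitted change is not bounded. The pairs gave 2.01 and -4.93.

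**Figure D3:**
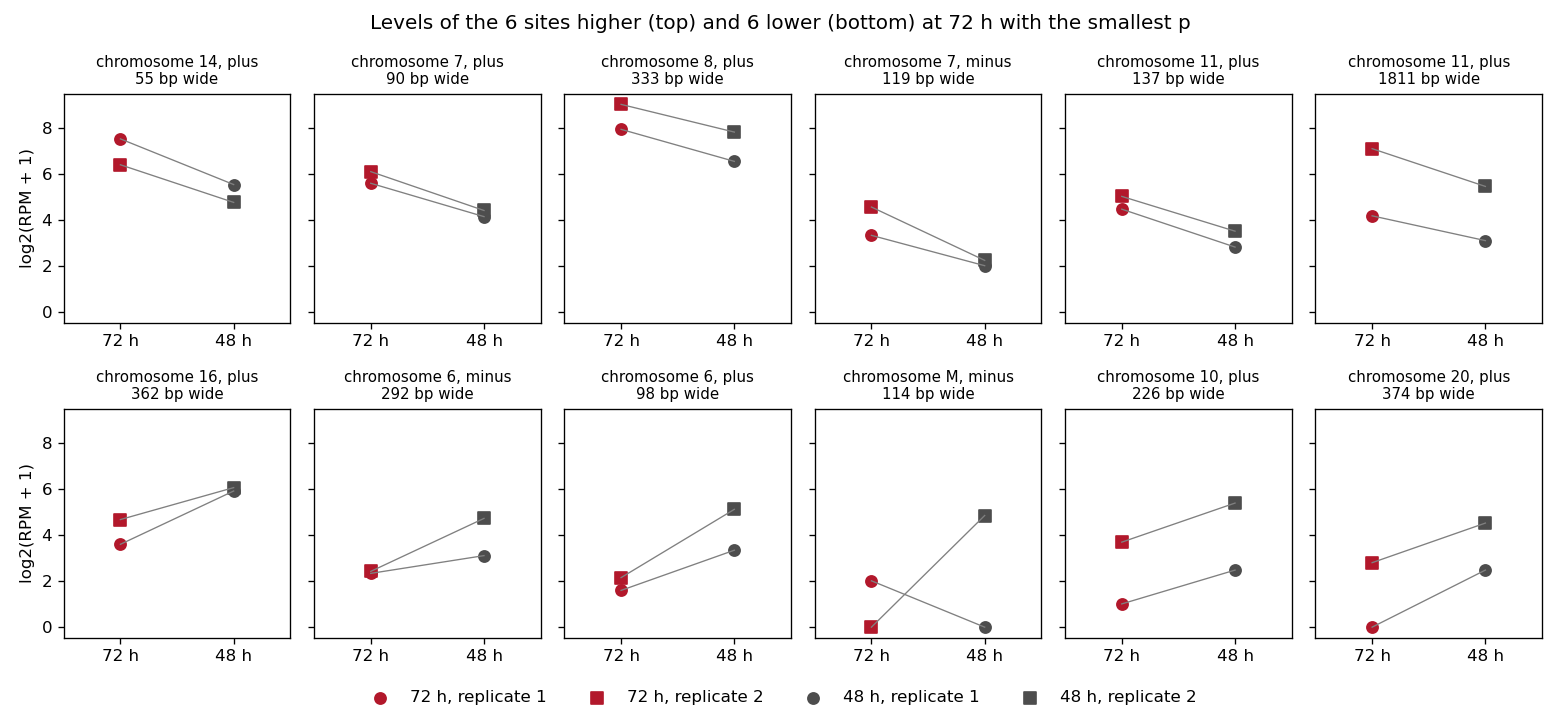
Level in log2(RPM + 1) (vertical) at 72 h (left, red) and 48 h (right, grey) for the 6 sites higher (top row) and the 6 lower (bottom row) at 72 h with the smallest p, where none passed. Circles are replicate 1, squares replicate 2, and a line joins the libraries of a replicate. In every panel but that of the mitochondrial site (chromosome M), where they cross, both lines run the same way.

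A fit of the 4 libraries alone, which leaves 1 residual degree of freedom, called 6 of 13970 sites (0.0429%), 2 higher and 4 lower at 72 h. These were named after their values were seen. The higher ones were the chromosome 14 site, chr14:102027785-102027839, and chr11:65190619-65191325 on the plus strand. This chromosome 11 site had 3.04 and 66.5 RPM at 72 h, against 3.06 and 8.87 RPM at 48 h. Its pairs gave log2 changes of -0.07 and 2.86. Replicate 1 had 2 tags at 48 h and 3 tags at 72 h, too few to show whether the site changed there. A nearby site on the same strand, chr11:65191661-65193471, one of the 6 higher ones above, gave 1.00 and 1.72.

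The lower ones included the chromosome 16 site above and chr15:41245582-41245891 on the plus strand. The chromosome 15 site had 58.8 and 8.98 RPM at 72 h, against 156 and 61.03 RPM at 48 h, lower in both pairs (log2 -1.48 and -2.57), although its 48 h value in replicate 2 was close to its 72 h value in replicate 1. The other two lay on chromosome 6. On the plus strand, chr6:27114821-27114918 had 2.03 and 3.45 RPM at 72 h, against 9.17 and 33.9 RPM at 48 h, with a mean of 668 ± 688 RPM at 0 h (SD, n = 2). On the minus strand, chr6:26032110-26032385 had 7.10 and 3.22 RPM at 72 h, against 7.64 and 53.2 RPM at 48 h, with a mean of 603 ± 571 RPM at 0 h (SD, n = 2). The first was lower in both pairs (log2 -1.83 and -2.92), and the second mostly in replicate 2 (-0.17 and -3.64). In the fit with the other times, none of the 6 passed.

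The second deposited table holds single libraries of LNCaP and of BicR, another prostate cancer line, with the androgen DHT, the antiandrogen bicalutamide or ethanol, normalized apart from the time course. The chromosome 15 site had 10.3 RPM with DHT and 30.5 RPM with ethanol in LNCaP at 6 h, and 75.3 RPM with DHT and 13.1 RPM with ethanol at 24 h. In BicR it had 19.0 RPM with DHT and 40.9 RPM with ethanol at 6 h, and 64.0 RPM with DHT and 76.4 RPM with ethanol at 24 h. The plus-strand chromosome 6 site had 674 RPM with DHT and 685 RPM with ethanol in LNCaP at 6 h, and 281 RPM with DHT and 423 RPM with ethanol at 24 h. In BicR it had 1466 RPM with DHT and 1205 RPM with ethanol at 6 h, and 332 RPM with DHT and 888 RPM with ethanol at 24 h. The minus-strand chromosome 6 site had 826 RPM with DHT and 850 RPM with ethanol in LNCaP at 6 h, and 547 RPM with DHT and 481 RPM with ethanol at 24 h. In BicR it had 1660 RPM with DHT and 1459 RPM with ethanol at 6 h, and 571 RPM with DHT and 1509 RPM with ethanol at 24 h. The chromosome 14 site had 58.4 RPM with DHT and 64.4 RPM with ethanol in LNCaP at 6 h, and 85.0 RPM and 87.7 RPM at 24 h. Before treatment it had 71.1 RPM in LNCaP. In BicR it had 14.2 RPM with DHT and 13.9 RPM with ethanol at 6 h, and 9.02 RPM and 23.7 RPM at 24 h. The chromosome 11 and chromosome 16 sites have no values there. The direction of DHT against ethanol thus differed between times or lines at each of the sites with values. These single libraries carry no replicate check.

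The most abundant sites were read one by one, since their counting error is small, and they were chosen for their level over the 4 libraries. The highest, chr11:65266463-65271731 on the plus strand, had 8808 and 55802 RPM at 72 h, against 6582 and 28413 RPM at 48 h. The replicates differed more than the times, and the log2 change was 0.77 (95% interval -0.11 to 1.65). The next, chr19:18496833-18497279 on the plus strand, had 11523 and 34407 RPM at 72 h, against 17842 and 13080 RPM at 48 h, lower in replicate 1 and higher in replicate 2. Its mean was 791 ± 245 RPM at 0 h, 1548 ± 326 RPM at 12 h, 15461 ± 3367 RPM at 48 h and 22965 ± 16182 RPM at 72 h (SD, n = 2 each). Its mean at 48 h thus stood far above those at 0 h and 12 h.

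Another abundant site, chr19:51358062-51358959 on the plus strand, had 11907 and 6584 RPM at 72 h, against 11062 and 5010 RPM at 48 h. The log2 change was 0.22 (95% interval -0.45 to 0.89, adjusted p = 1). Its mean was 2066 ± 755 RPM at 0 h, 3261 ± 588 RPM at 3 h, 5263 ± 694 RPM at 12 h, 8036 ± 4280 RPM at 48 h and 9246 ± 3764 RPM at 72 h (SD, n = 2 each). In the second table it had 1504 RPM with DHT and 434 RPM with ethanol in LNCaP at 6 h, and 2190 RPM with DHT and 357 RPM with ethanol at 24 h. A site that was higher with DHT in those libraries was thus bounded within 2-fold in the third day of R1881.

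An abundant site with little spread was chr10:79793457-79793728 on the plus strand. It had 3484 and 4271 RPM at 72 h, against 3494 and 4548 RPM at 48 h, and its log2 change was -0.05 (95% interval -0.67 to 0.57). The pairs gave -0.09 and -0.01.

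Sites that had answered to R1881 early were chosen in the 0, 3 and 12 h libraries alone, by a separate fit, and then read at 72 h and 48 h, which that choice did not use. There 1052 of 15149 sites rose by 12 h (6.94% called) and 622 fell (4.11% called). The sites that rose by 12 h had a median level of 37.4 RPM at 72 h and 38.5 RPM at 48 h. Their median log2 change at 72 h against 48 h was -0.13, beside -0.02 for all sites tested. An estimate below 0 was found at 671 of 1052 (63.8%), beside 51.5% of all sites. The pair medians were -0.17 and -0.07. Both pairs thus had a median slightly below 0. Of the 1052 sites, 427 were bounded within 2-fold (40.6%), beside 31.0% of all sites. For 317 of them whose rise by 12 h was at least 4-fold, the median was -0.34, with pair medians of -0.11 and -0.36. Of these, 233 had an estimate below 0 (73.5%). These 317 had a lower median level, 9.95 RPM at 72 h and 11.8 RPM at 48 h, and 46 were bounded within 2-fold (14.5%). None of these sites passed on its own.

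The 622 sites that fell by 12 h had a median log2 change of -0.10 between 72 h and 48 h. Of these, 361 had an estimate below 0 (58.0%), beside 51.5% of all sites. Their median level was 15.1 RPM at 72 h and 14.7 RPM at 48 h. Set against the 0 h library of the same replicate, on a log2(RPM + 1) scale, the medians of replicates 1 and 2 were -1.34 and -1.16 at 12 h. They were -1.59 and -1.25 at 48 h, and -1.31 and -1.52 at 72 h. At 72 h the median was thus nearer to 0 than at 48 h in replicate 1 and farther from 0 in replicate 2. The sites that rose by 12 h had medians of 1.64 and 1.22 at 12 h, 1.36 and 1.09 at 48 h, and 1.31 and 0.97 at 72 h. These values share the 0 h libraries with the choice of the sites, so the distance from 0 at 12 h is partly what chose them.

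**Figure D4:**
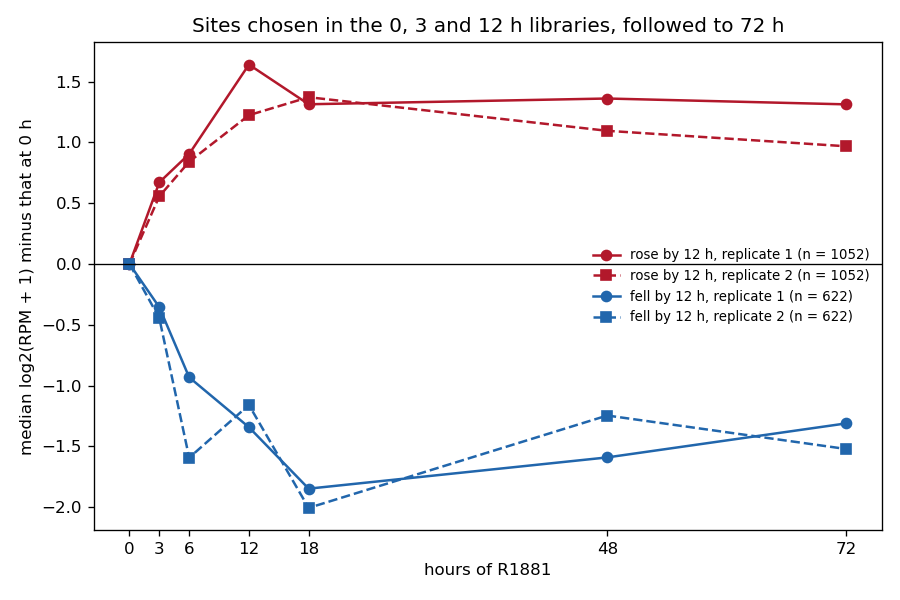
Median log2(RPM + 1) minus that of the same replicate at 0 h (vertical) against hours of R1881 (horizontal), for 1052 sites that rose (red) and 622 that fell (blue) by 12 h in the 0, 3 and 12 h libraries. Solid lines with circles are replicate 1 and dashed lines with squares replicate 2. The red lines stand at 1.36 and 1.09 at 48 h and at 1.31 and 0.97 at 72 h.

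Sites were also chosen in the second table, whose libraries are independent of the time course, as at least 1.5-fold higher or lower with DHT than with ethanol at both 6 h and 24 h. In LNCaP 112 of 13294 sites were higher (0.842%), and 79 of them were tested here. Their median log2 change at 72 h against 48 h was -0.12, with pair medians of -0.08 and -0.21. An estimate below 0 was found at 47 of 79 (59.5%), beside 51.5% of all sites tested. In BicR 333 sites were higher with DHT (2.5%), and the 230 tested here had a median of -0.11, with pair medians of -0.08 and -0.18. Of the 243 sites lower with DHT in BicR (1.83%), 129 were tested, with a median of -0.01. Of the 41 lower in LNCaP (0.308%), 15 were tested, with a median of -0.12. The medians of the 4 groups thus ran from -0.12 to -0.01, and none of their sites passed.

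**Figure D5:**
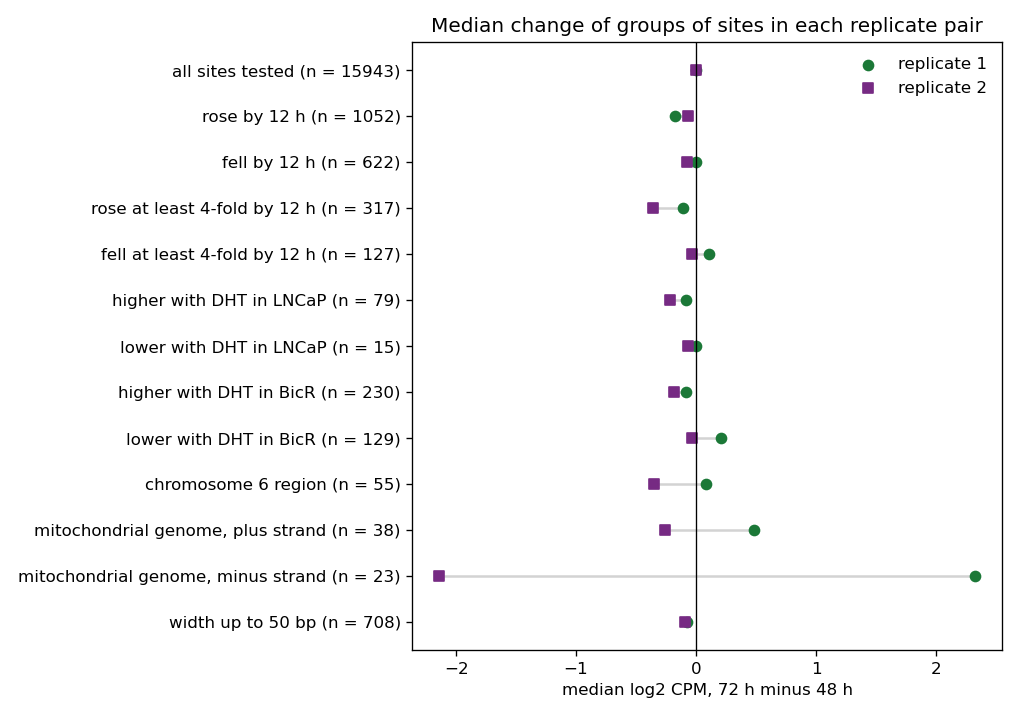
Median log2 CPM at 72 h minus 48 h (horizontal) for groups of sites (rows, number of sites in brackets), in replicate 1 (circles) and replicate 2 (squares). Most rows lie close to 0, and the minus strand of the mitochondrial genome stands at 2.33 in replicate 1 and -2.14 in replicate 2.

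Mitochondrial sites gave the widest gap between the pairs. The mitochondrial genome is transcribed on both strands by its own polymerase, and most of its genes lie on one strand. It took 4.37% and 4.82% of the tags at 72 h, against 2.56% and 6.46% at 48 h, so both 72 h libraries lay between the 48 h libraries. The 23 tested sites on its minus strand had pair medians of 2.33 in replicate 1 and -2.14 in replicate 2. In replicate 1 21 of the 23 were higher at 72 h, and in replicate 2 22 were lower. The 38 sites on the plus strand ran the same way with smaller size, at 0.48 and -0.26. A minus-strand site at chrM:2061-2112 had 25.4 and 0 RPM at 72 h, against 0 and 90.1 RPM at 48 h. The most abundant plus-strand site, chrM:1647-2445, had 16229 and 11502 RPM at 72 h, against 9460 and 23253 RPM at 48 h. With the mitochondrial sites left out, an alternative added after the data were seen, 0 sites were called, with 734 at an unadjusted p under 0.05.

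The stretch of chromosome 6 from 26 to 28 Mb is known for its large cluster of replication-dependent histone genes, whose transcripts accumulate in S phase. Its sites together took 0.385% and 0.324% of the tags at 72 h, against 0.491% and 0.477% at 48 h, with no overlap, and means of 0.354 ± 0.0435% and 0.484 ± 0.00997% (SD, n = 2 each). Without its highest site, chr6:26056456-26056762 on the minus strand, the shares were 0.231% and 0.220% at 72 h and 0.220% and 0.322% at 48 h, which overlap. That site had 1349 and 914 RPM at 72 h, against 2450 and 1323 RPM at 48 h (log2 -0.75, SE 0.36, adjusted p = 1). Of 57 sites in the region 55 were tested, with pair medians of 0.09 and -0.35. Of these, 34 had an estimate below 0 (61.8%), beside 51.5% of all sites tested.

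Site width was read as a further feature that the choice of libraries did not use. The 708 sites up to 50 bp wide had a median log2 change of -0.19, and 458 had an estimate below 0 (64.7%, beside 51.5% of all sites). Their median level was 4.59 RPM at 72 h and 5.25 RPM at 48 h, below the 14.6 and 14.2 RPM of all tested sites. The median was -0.01 for the 2414 sites of 51 to 100 bp and -0.01 for the 4785 sites over 200 bp. Of the 708 narrow sites 49 were bounded within 2-fold, beside 2049 of 4785 over 200 bp.

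Neighbouring start sites were tested for unequal change, which asks whether transcription moved from one start to another nearby. Sites on one strand were joined where the next lay within 10000 bp. Of 2103 neighbourhoods with 2 or more tested sites, 0 were called by edgeR's diffSpliceDGE with the Simes method (0%), and 26 had an unadjusted p under 0.05. The smallest adjusted p was 1. Without replicate 1 at 72 h, 2 neighbourhoods were called.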

How the data were processed

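Tag counts per site were deposited as whole numbers, and the deposited RPM values are those counts scaled by 1 factor per library. Per the submitters' processing notes the build was hg19; the aligner, cluster caller and site filter are not given in the sources used here. Every column of per-sample values was matched to a sample. None of the site names matched the RefSeq gene table (GRCh38.p14), so the gene and marker lists were not used.

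Sites were filtered with filterByExpr (minimum count 10) and fitted in R 4.3.3 with edgeR 4.0.16 (TMM, quasi-likelihood F test, Benjamini-Hochberg). DESeq2 1.42.0 was an alternative. Replicate number was a block in the fit, since libraries that share a number deviated together from the mean of their times (r of 0.19 to 0.56 in 10 of 10 pairs of times). The 6 h and 18 h libraries were left out of it because earlier results gave them as shallow or standing apart. Differences within a replicate are log2 CPM with a prior count of 2. Scripts were tested on simulated data. Ratios of tags and limits at a count of 0 cover counting error only.

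Named sites are the 6 smallest p each way with a mean of at least 10 RPM at the higher time, since none passed; each way, the site with the largest change and that with the highest RPM are printed by position. Other printed sites were chosen after their values were seen. The groups of sites, tests and lists were chosen with earlier results of these data known. A planned reading of called sites in the second table had none to read, so sites were chosen there by DHT instead, with a pseudocount of 1 RPM.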

Additional observations from a re-analysis of the deposited data

How the results depend on the processing

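The count of called sites stayed at 0 with no replicate block, with all 14 libraries, with DESeq2's size factors, with a minimum mean of 10 RPM and with DESeq2, and, in alternatives chosen after seeing the data, with the library totals of the deposited RPM, with tags summed over neighbourhoods and without the mitochondrial genome. It was 6 with only the 4 libraries and 3 with no filter, where 1 rose and 2 fell. Leaving out each of the 4 libraries gave 0 to 163 calls. Of these, 163 came without replicate 1 at 72 h, and 1 without replicate 1 at 48 h. The sites bounded within 2-fold, 4944 in all, were 2389 with no replicate block and 2285 with all 14 libraries, and 1376 to 3403 when 1 library was left out. They were 3768 to 5121 with only the 4 libraries, DESeq2's size factors, no filter or a minimum of 10 RPM, and were not counted under other settings. Neighbourhoods called were 0 to 2 when 1 library was left out and 0 with no replicate block, all 14 libraries, or shorter or longer links between sites. Other settings were not run for neighbourhoods. The cause of these differences was not tested. For the 12 named sites, 132 of 151 values kept their direction and side of the threshold, 18 passed it with the same direction and 1 turned: the minus-strand mitochondrial site, at 1.44 (SE 5364) without replicate 2 at 48 h, against -8.85 (SE 4052) without replicate 1 at 72 h. In both of those fits 1 time has 0 tags, so neither value measures a change. Most of the 18 came without replicate 1 at 72 h, where 72 h is 1 library. With 2 libraries a time and as few as 589685 tags in one, changes beyond 2-fold were not excluded at most sites under 30 RPM.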
